A study of Mus musculus with 2 samples.

Results

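The integrated stress response and the unfolded protein response were followed through 10 genes in single cells from mouse oral tumours. The genes were taken by symbol, and 10 of 32245 symbols in the count tables matched, in 11 of 32285 rows: Atf4, Ddit3, Asns, Trib3, Chac1, Nupr1, Sesn2, Xbp1, Herpud1 and Hspa5. Cells came from subcutaneous tumours of MOC2, a mouse oral carcinoma line injected with Matrigel into the flank of female C57BL/6 mice 6 to 7 weeks old. The Momordicine-I mice received 30 mg/kg of this bitter melon triterpenoid by daily intraperitoneal injection in 5% DMSO with a 30% Captisol solution, and the vehicle mice received the carrier alone. Both arms held 10 mice. Tumours from 3 of them were combined, stained with a CD45 antibody and propidium iodide, sorted, and made into a single 10x 3′ library. Each group is therefore 1 library, so no difference below has a replicate check and none carries a p-value. The line itself was the only tumour model, and pooling hides the spread between mice.

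In the integrated stress response, the kinases PERK, GCN2, PKR and HRI phosphorylate the initiation factor eIF2α, which lowers translation of most mRNAs while translation of the ATF4 mRNA goes up. ATF4 then switches on genes for amino acid supply and redox balance, and with them CHOP, the product of Ddit3. The unfolded protein response of the endoplasmic reticulum (ER) shares PERK and adds a branch in which IRE1 splices the Xbp1 mRNA and one in which ATF6 is cleaved, and both raise ER chaperones and degradation factors. UMI counts show neither Xbp1 splicing nor Atf4 translation, only how much RNA was captured.

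Barcodes were kept with at least 200 detected genes and at most 10% mitochondrial UMIs, which left 4370 of 4693 barcodes with 40284090 UMIs for Momordicine-I and 3364 of 3642 with 33179710 UMIs for vehicle. The libraries shared 7 of these barcode sequences. Cells were assigned to types by marker genes and are called X-like. In 217 Momordicine-I and 149 vehicle cells no type led the next clearly, and 115 and 84 cells matched no type. The 8 types described had no fewer than 50 cells and 100000 UMIs per library. Neutrophil-like cells made up most of the material, with 2917 Momordicine-I and 2131 vehicle cells. There were 327 and 354 T-like, 151 and 66 monocyte-like, 123 and 74 dendritic-like, 91 and 227 B-like, 87 and 52 NK-like and 59 and 55 macrophage-like cells. The CD45 sort also held 181 Momordicine-I and 63 vehicle tumour-like cells, led by keratins.

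Levels are given as CPM, the UMIs of a gene summed over a cell type and scaled to a fixed total of its UMIs, with an exact Poisson 95% interval. Ratios divide the Momordicine-I level by the vehicle level, with an exact conditional binomial 95% interval. Both kinds of interval cover counting error only and leave out differences between cells and mice. A gene was measured in a type where the libraries together held at least 20 of its UMIs, and it counted as higher from a 1.5-fold ratio upward and as lower from the inverse downward.

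Promoter sequence was looked at because ATF4 and CHOP bind composite elements (CARE, TGATGNAA) and the unfolded protein response acts through ER stress elements (ERSE, which is CCAAT, 9 bases of any kind and CCACG, and ERSE-II, which is ATTGG, 1 base and CCACG). The 250 bases before the RefSeq start of all 10 genes were searched on both strands in GRCm38.p6. A CARE match was present in 4 of the 10, at 23 bases before the start in Asns, 193 in Chac1, 110 in Nupr1 and 112 in Herpud1, against 3.45% of 32851 RefSeq promoters. An ERSE-II match was present in Herpud1, 52 bases before the start, against 0.0304% of promoters, and an ERSE match in Hspa5, 65 bases before it, against 0.113%. The site TGACGTGG was present in none of the 10 and in 0.563% of promoters. Both the Chac1 and the Herpud1 stretch hold a CARE match, and the Herpud1 stretch also holds the ERSE-II match, so both are shown for comparison, 200 bases each from RefSeq, 5′ to 3′ on the plus strand, Chac1 from chr2:119351029-119351228 and Herpud1 from chr8:94386229-94386428. Each stretch ends before the first annotated GENCODE or RefSeq start, so it can stop short of the RefSeq start from which the distances run. Capitals mark the fixed letters of a match, which for CARE lies on the opposite strand.
Chac1: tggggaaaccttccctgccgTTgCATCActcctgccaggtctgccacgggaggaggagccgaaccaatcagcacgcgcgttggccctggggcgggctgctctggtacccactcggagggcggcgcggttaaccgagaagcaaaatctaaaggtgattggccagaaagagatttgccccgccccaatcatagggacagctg
Herpud1: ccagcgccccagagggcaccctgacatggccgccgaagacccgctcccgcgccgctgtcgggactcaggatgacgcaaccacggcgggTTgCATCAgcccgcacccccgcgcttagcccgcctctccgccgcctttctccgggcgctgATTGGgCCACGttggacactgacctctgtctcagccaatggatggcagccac
A match describes the letters in this window and is not a measured site.

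The ratio of Nupr1 in Momordicine-I over vehicle cells lay above 1 in each of the 6 types where it was measured, from 1.16 to 2.34, with an interval above 1 in 5 of the 6. Nupr1 (chromosome 7, 126623249 to 126630861, minus strand) encodes a small chromatin protein induced by stress. Tumour-like cells held by far the most of it, with 728 CPM in Momordicine-I cells and 367 CPM in vehicle cells, a ratio of 1.98 (1.85 to 2.12). Monocyte-like cells came next, at 109 CPM with Momordicine-I and 53.6 CPM with vehicle, a ratio of 2.03 (1.55 to 2.69). Macrophage-like cells had 73.5 CPM with Momordicine-I and 33.0 CPM with vehicle, a ratio of 2.23 (1.43 to 3.54). In T-like cells the 22 Momordicine-I UMIs and 12 vehicle UMIs gave a ratio of 2.34 (1.11 to 5.18), and 1 cell held 31.8% of them with Momordicine-I and 50% with vehicle. Gamma-delta T-like cells held 19 of these UMIs with Momordicine-I and 2 with vehicle. Naive T-like cells held 2 and 3, and regulatory T-like cells 1 and 6. Gamma-delta T-like cells numbered 140 with Momordicine-I and 41 with vehicle, and the part of this makeup in the ratio was not tested. In dendritic-like cells the interval of the ratio included 1 (1.16, 0.718 to 1.91). B-like and NK-like cells had under 20 Nupr1 UMIs between the libraries. Fibroblast-like cells, 12 with Momordicine-I and 5 with vehicle and so below the cell minimum, went the other way. They had 85.4 CPM with Momordicine-I and 341 CPM with vehicle, a ratio of 0.250 (0.149 to 0.414).

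The neutrophil-like difference in Nupr1 sat in cells with many UMIs. Over all neutrophil-like cells Nupr1 stood at 19.0 CPM with Momordicine-I and 10.0 CPM with vehicle, a ratio of 1.90 (1.56 to 2.31). Cells of at least 20000 UMIs, 134 with Momordicine-I and 115 with vehicle, had 35.5 and 11.7 CPM, a ratio of 3.04 (2.11 to 4.47). Cells of 5000 to 20000 UMIs had 14.4 CPM with Momordicine-I and 7.25 CPM with vehicle, a ratio of 1.99 (1.47 to 2.73). Cells under 5000 UMIs had 14.7 CPM with Momordicine-I and 16.03 CPM with vehicle, a ratio of 0.914 (0.634 to 1.33), so these showed no higher level. This split by depth was chosen after the values were seen. With every cell thinned to 2000 UMIs, 1.90% of Momordicine-I and 1.85% of vehicle neutrophil-like cells held a Nupr1 UMI.

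Keratin UMIs also differed between the neutrophil-like groups. The keratins Krt7, Krt8 and Krt18 summed to 57.5 CPM in Momordicine-I and 38.5 CPM in vehicle neutrophil-like cells, 0.785% and 0.4997% of their level in tumour-like cells. At that share, tumour-like RNA would carry 5.72 CPM of Nupr1 in the Momordicine-I and 1.83 CPM in the vehicle cells, and its part in the ratio was not tested. Among neutrophil-like cells with no UMI of these keratins, Nupr1 stood at 14.5 CPM with Momordicine-I and 9.07 CPM with vehicle, a ratio of 1.599 (1.252 to 2.05). Neutrophil-like cells without such a UMI held fewer UMIs per cell than those with one, so this selection also selects on depth. In the same selection the ratio was 2.24 (1.66 to 3.09) in monocyte-like and 2.91 (1.79 to 4.85) in macrophage-like cells. In T-like cells the keratins stood at 37.6 CPM with Momordicine-I and 17.1 CPM with vehicle. That share of tumour-like RNA would carry 3.73 of the 8.70 CPM of Nupr1 in the Momordicine-I T-like cells and 0.813 of the 3.72 CPM in the vehicle T-like cells, and its part in the T-like ratio was not tested. The macrophage-like value leaned on 1 Momordicine-I cell with 39.1% of the Nupr1 UMIs of its library. Without the top cell of each library the macrophage-like log2 ratio was 0.55 (-0.21 to 1.32), and as a mean of the cells' own CPM it was -0.60.

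**Figure D1:**
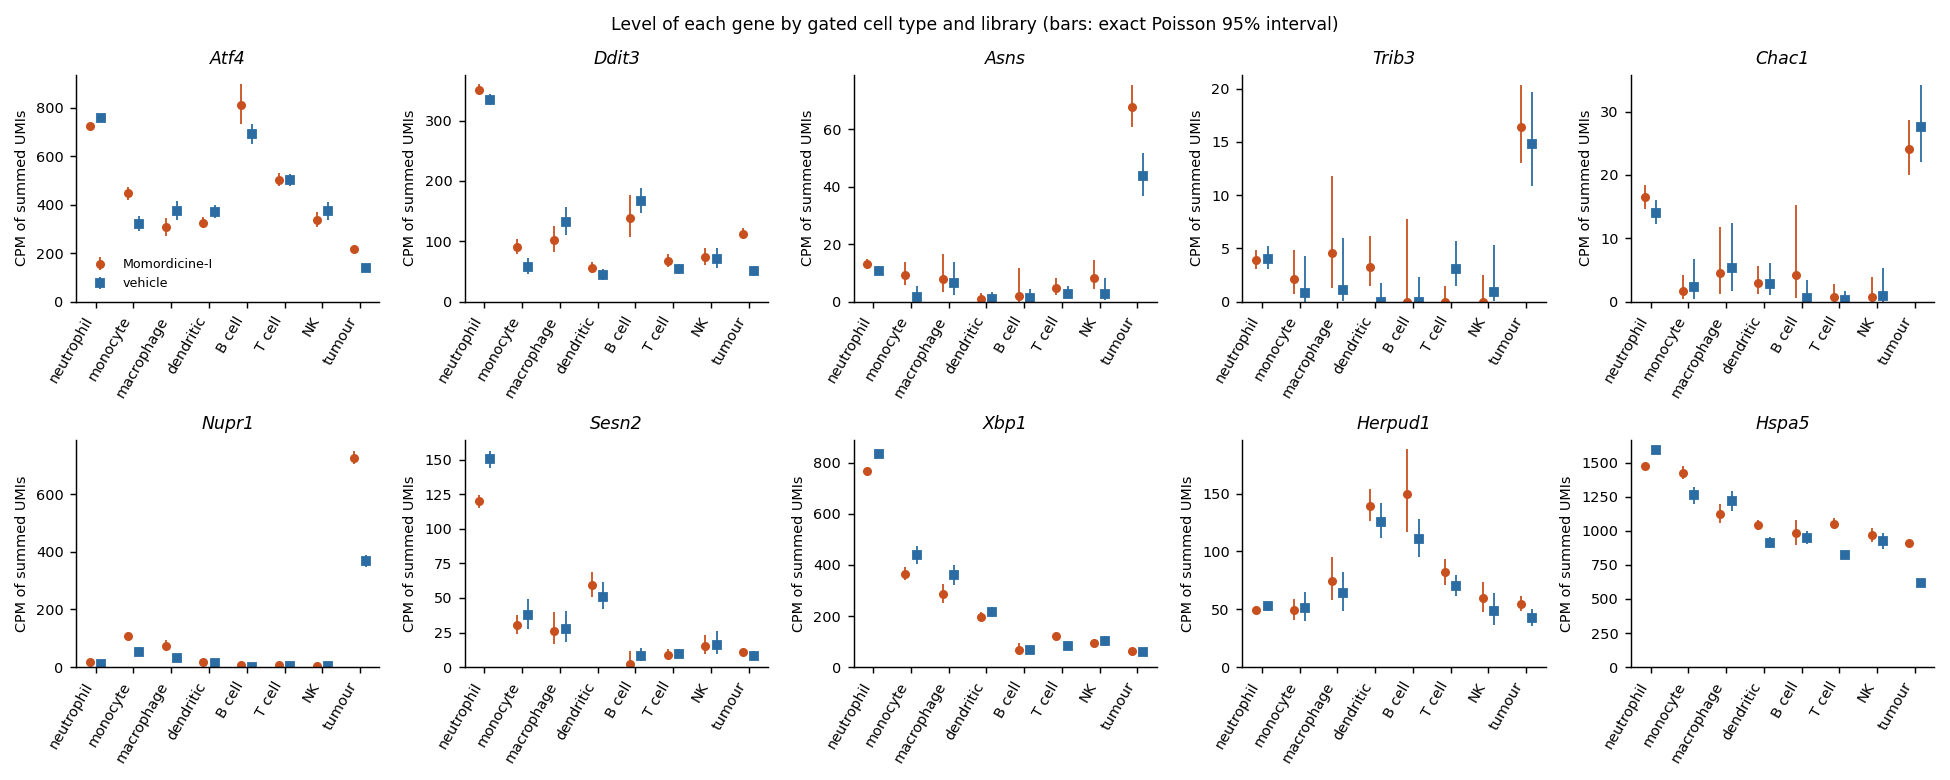
Level of each gene in 8 gated cell types (CPM of summed UMIs, linear axes from 0), Momordicine-I as circles on the left and vehicle as squares on the right of each pair. Bars are exact Poisson 95% intervals. Nupr1, Asns and Trib3 stand highest in tumour-like cells by summed UMIs, Trib3 in vehicle through 1 cell, while Ddit3, Sesn2 and Xbp1 stand highest in neutrophil-like cells.

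Tumour-like cells had the most members past the 1.5-fold limit, 4 of 10. All 10 were measured there, 4 passed the 1.5-fold limit upward and 0 downward, against 7.86% of 10600 genes upward and 11.9% downward. The median log2 ratio of the members was 0.49, against a median of -0.08 over all genes measured in the type. The 4 were Ddit3 (2.22, 1.86 to 2.67), Nupr1, Asns (1.55, 1.27 to 1.90) and Atf4 (1.55, 1.38 to 1.73), and Hspa5 lay just under the limit (1.48, 1.40 to 1.56). Ddit3 (chromosome 10, 127290774 to 127296288, plus strand), which encodes the transcription factor CHOP, had 113 CPM with Momordicine-I and 50.8 CPM with vehicle. Atf4 (chromosome 15, 80255184 to 80257541, plus strand) had 217 CPM with Momordicine-I and 140.1 CPM with vehicle. Chac1 had a ratio of 0.871 (0.656 to 1.16), the one member below 1. With cells limited to 5% mitochondrial UMIs, 2 members were higher and 1 lower, with no share of all genes given for that setting.

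Few cells carried these sums. The 42 Momordicine-I and 17 vehicle tumour-like cells of at least 20000 UMIs held 92.2% and 97.6% of the UMIs of their groups. Ptprc, which encodes CD45, stood at 7.28 CPM in these Momordicine-I and 10.2 CPM in these vehicle cells. Ddit3 ranged over them from 0 to 649 CPM with a median of 48.7 in Momordicine-I cells, and from 0 to 504 CPM with a median of 18.5 in vehicle cells, so the groups overlapped widely. Nupr1 had a lowest, median and highest cell of 0, 341 and 3096 CPM with Momordicine-I and of 0, 155 and 1951 CPM with vehicle. The median cell differed little for Atf4, with 148 CPM under Momordicine-I and 151 CPM under vehicle, while the summed level was higher with Momordicine-I. Hspa5 had a lowest, median and highest cell of 86.5, 728 and 5067 CPM with Momordicine-I and of 0, 528 and 1431 CPM with vehicle. In tumour-like cells under 20000 UMIs, which held 45 and 10 Ddit3 UMIs, the Ddit3 ratio was 0.840 (0.417 to 1.87), and averaging the cells' own CPM put it below 1.

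**Figure D2:**
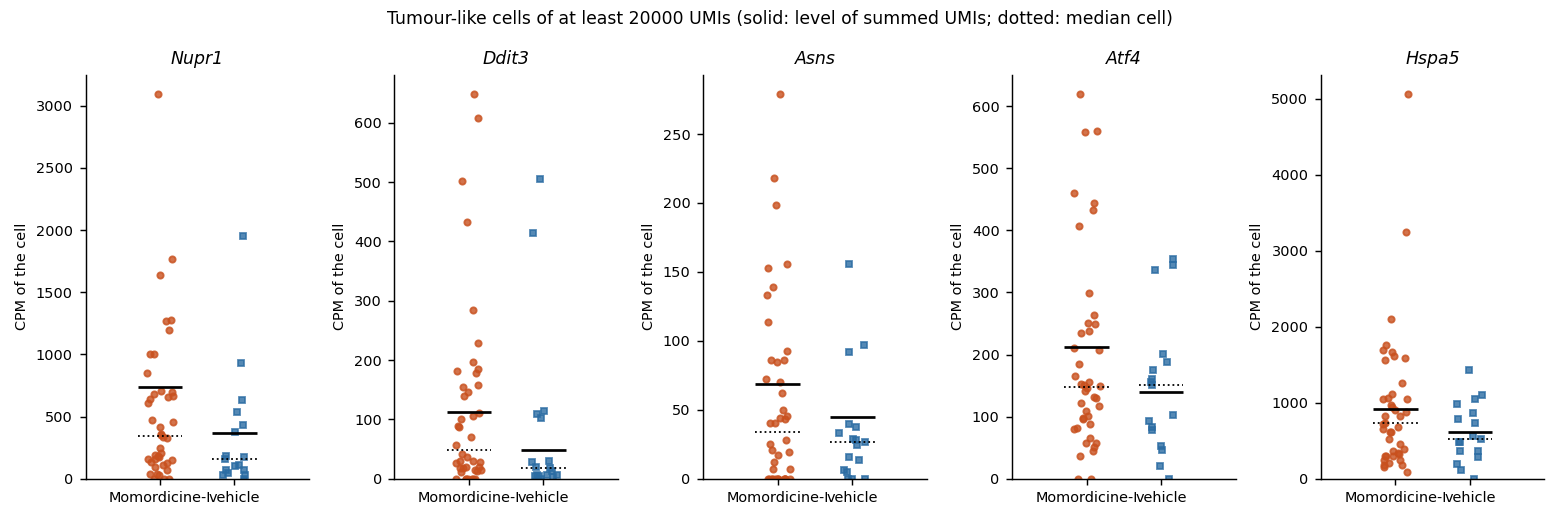
CPM of 5 genes in each tumour-like cell of at least 20000 UMIs, 42 Momordicine-I cells on the left and 17 vehicle cells on the right, with the level of summed UMIs as a solid and the median cell as a dotted line. The cells of both libraries overlap for every gene, and the highest Momordicine-I cell stands above the highest vehicle cell for Nupr1 (3096 against 1951 CPM), Ddit3 (649 against 504 CPM) and Hspa5 (5067 against 1431 CPM).

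A single vehicle cell set several of these values. The largest vehicle tumour-like cell had 442133 UMIs, 14.2% of its group, and the largest Momordicine-I cell 368169 UMIs, 7.26%. In the vehicle group, 1 cell gave 76.1% of the Trib3 UMIs, 65.1% of the Chac1 UMIs and 50.7% of the Asns UMIs. In the Momordicine-I group, the top cell of each gene gave 25.3% of Trib3, 33.6% of Chac1 and 11.1% of Asns UMIs. The largest vehicle cell had 127 CPM of Chac1 and 102 CPM of Ddit3, and the largest Momordicine-I cell had 0 of both. Leaving out both cells therefore takes these UMIs from the vehicle side alone. Trib3 (chromosome 2, 152337422 to 152344032, minus strand) encodes a pseudokinase that restrains ATF4 and CHOP activity, and it stood at 16.4 CPM with Momordicine-I and 14.8 CPM with vehicle. With the largest cell of each library left out, a setting chosen after the data were seen, Trib3 stood at 17.2 CPM with Momordicine-I and 4.12 CPM with vehicle, a ratio of 4.18 (2.22 to 8.71). Chac1 then had a ratio of 2.31 (1.54 to 3.57), Asns 2.71 (2.08 to 3.59), Ddit3 2.88 (2.35 to 3.55) and Nupr1 1.93 (1.79 to 2.08). The count of members higher in tumour-like cells was then 9 of 10, with Xbp1 at 1.17 (0.956 to 1.43) the exception. The share of all genes past the limit is not given for this setting, so the count cannot be set against it.

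Asns, Trib3 and Chac1 are ATF4 targets, and by summed UMIs all 3 stood highest in tumour-like cells, in vehicle with a large share from 1 cell. Asns (chromosome 6, 7675169 to 7693254, minus strand), asparagine synthetase, had 67.7 CPM with Momordicine-I and 43.7 CPM with vehicle in tumour-like cells, and next 13.003 and 10.8 CPM in neutrophil-like cells. Chac1 (chromosome 2, 119351229 to 119354381, plus strand), an enzyme that breaks down glutathione, had 24.1 CPM with Momordicine-I and 27.6 CPM with vehicle in tumour-like cells, then 16.5 and 14.0 CPM in neutrophil-like cells. By summed UMIs the tumour-like levels of all 3 stood clear of the next type in both libraries. Without the largest tumour-like cell of each library, Chac1 stood at 26.0 CPM with Momordicine-I but at 11.2 CPM with vehicle, below the vehicle neutrophil-like cells. Trib3 in vehicle tumour-like cells, at 4.12 CPM, was then level with vehicle neutrophil-like cells at 4.05 CPM, while Asns kept its place with 68.1 CPM under Momordicine-I and 25.1 CPM under vehicle. In the other 6 types these genes held few UMIs, with at most 22 per library. Asns had 22 Momordicine-I and 2 vehicle UMIs in monocyte-like cells (5.93, 1.46 to 52.0), and 12 and 9 UMIs in T-like cells (1.70, 0.657 to 4.57). Trib3 had 9 Momordicine-I and 0 vehicle UMIs in dendritic-like cells, and 0 Momordicine-I and 10 vehicle UMIs in T-like cells.

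Monocyte-like cells had the next most members past the limit. Of 8 members measured, 3 were higher (Ddit3, Asns and Nupr1) and 0 lower, against 8.69% of 8364 genes upward and 12.4% downward. Ddit3 had 91.3 CPM with Momordicine-I and 57.5 CPM with vehicle (1.59, 1.21 to 2.10), and Atf4 had 447 CPM with Momordicine-I and 321 CPM with vehicle (1.39, 1.24 to 1.56). Xbp1 was below 1, with 366 CPM under Momordicine-I and 438 CPM under vehicle (0.835, 0.751 to 0.930). Neutrophil RNA differed between these groups, since S100a8 and S100a9 stood at 3.60% of their neutrophil-like level in Momordicine-I and at 9.51% in vehicle monocyte-like cells. That share of neutrophil-like RNA would carry 27.6 CPM of Xbp1 and 12.7 CPM of Ddit3 in the Momordicine-I cells, and 79.4 CPM of Xbp1 and 31.8 CPM of Ddit3 in the vehicle cells. Its part in the ratios was not tested.

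**Figure D3:**
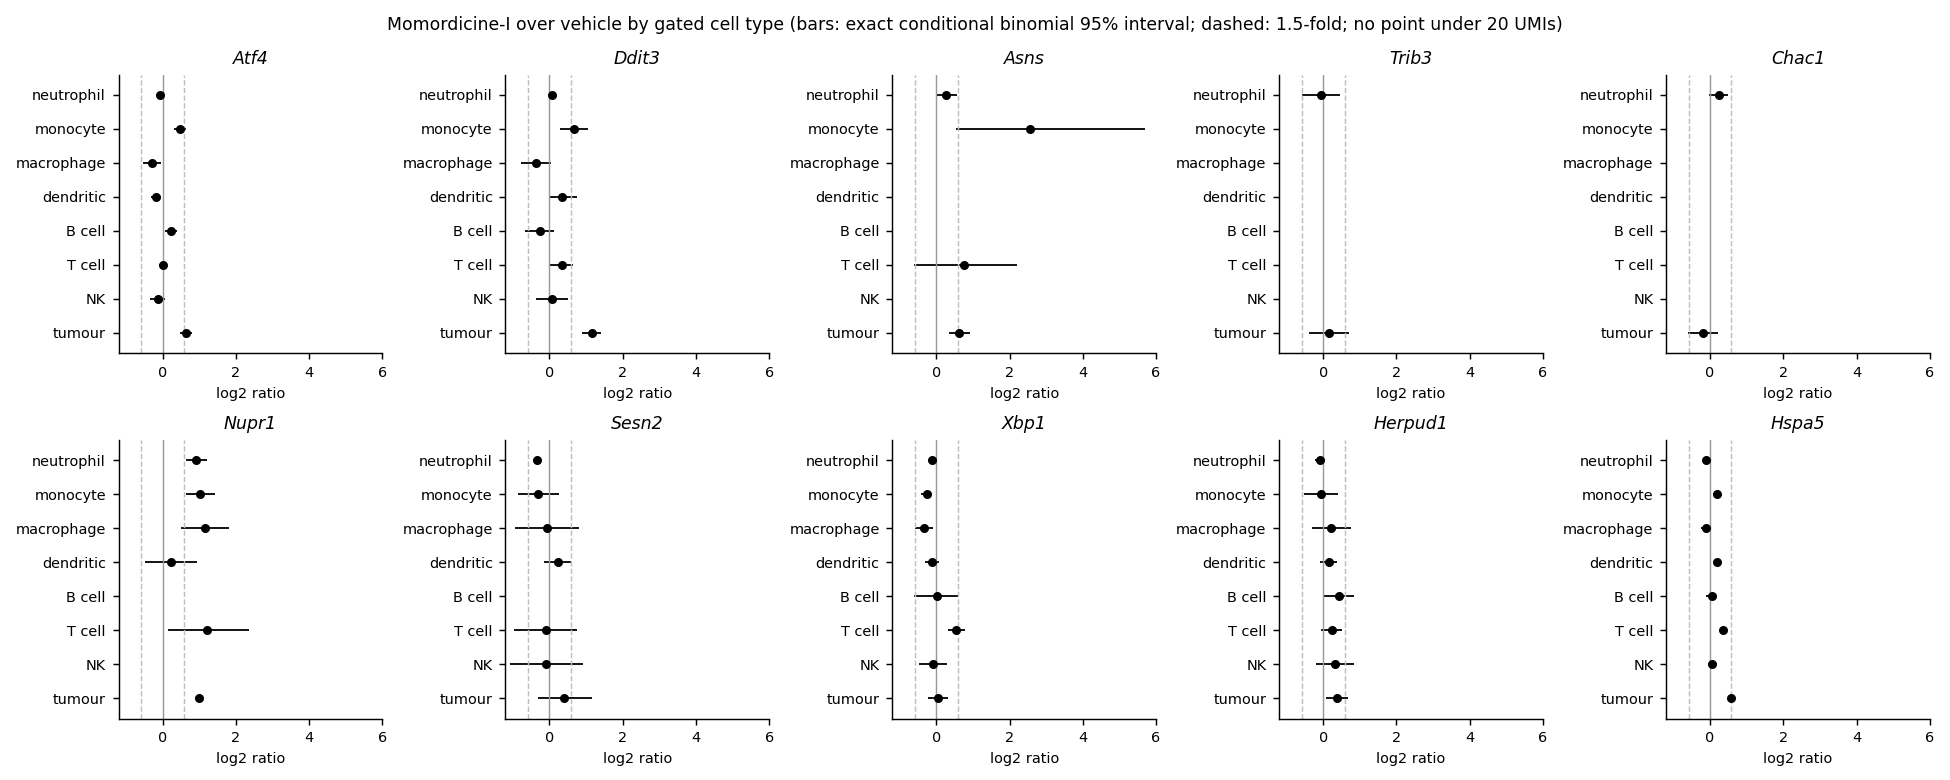
Log2 ratio of Momordicine-I over vehicle for each gene by gated cell type, with exact conditional binomial 95% intervals, dashed lines at 1.5-fold, and no point under 20 UMIs. Nupr1 lies above 0 in all 6 types measured, Ddit3 and Atf4 reach furthest in tumour-like cells, and the points of Herpud1 and Xbp1 stay within the dashed lines.

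In neutrophil-like cells 9 of the 10 members lay within the 1.5-fold limit. All 10 were measured, and 1 was higher (Nupr1) and 0 lower, against 13.5% of 11948 genes upward and 4.79% downward. The median log2 ratio over all genes was 0.15 in this type, and 7 of the 10 members lay below it. Sesn2 (chromosome 4, 132492032 to 132510501, minus strand), a sestrin that senses leucine and restrains mTORC1, had 119.9 CPM with Momordicine-I and 150.4 CPM with vehicle, a ratio of 0.797 (0.752 to 0.845). Xbp1 had 767 CPM with Momordicine-I and 836 CPM with vehicle (0.918, 0.896 to 0.940), and Hspa5 had 1475 CPM with Momordicine-I and 1598 CPM with vehicle (0.923, 0.907 to 0.939). Ddit3 had 352 CPM with Momordicine-I and 335 CPM with vehicle (1.05, 1.01 to 1.09), and Atf4 had 727 CPM with Momordicine-I and 759 CPM with vehicle (0.957, 0.934 to 0.982). These narrow intervals reflect large counts, and differences of this size cannot be told apart from the spread between pools of mice. Within the limit as well, the Sesn2 log2 ratio was -0.33 (-0.47 to -0.20) in the mature-type neutrophil state, -0.28 (-0.59 to 0.03) in the Siglecf state, -0.29 (-0.39 to -0.18) in the hypoxia-gene state and -0.40 (-0.55 to -0.26) in the other neutrophil-like cells.

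Neutrophil-like cells held the highest Ddit3, Sesn2 and Xbp1 of the 8 types, clear of the next type in both libraries. Ddit3 was followed by B-like cells with 139 CPM under Momordicine-I and 167 CPM under vehicle, and Sesn2 by dendritic-like cells with 59.3 CPM under Momordicine-I and 50.8 CPM under vehicle. Xbp1 (chromosome 11, 5520659 to 5525893, plus strand), the transcription factor of the IRE1 branch, was next in level, each type apart from the one below it in both libraries, in monocyte-like (366 and 438 CPM), macrophage-like (286 and 360 CPM) and dendritic-like cells (198 and 214 CPM, Momordicine-I before vehicle). Among the 4 lowest types, T-like, NK-like, B-like and tumour-like, none stood apart from the next along the order in both libraries. T-like and NK-like cells did stand clear of tumour-like cells. Thinned to 2000 UMIs, 43.3% of Momordicine-I and 39.6% of vehicle neutrophil-like cells held a Ddit3 UMI, against 11.3% and 9.30% of T-like cells. S100a8 and S100a9 in T-like cells stood at 1.26% and 0.921% of the neutrophil-like level, which would carry 4.44 CPM of Ddit3 in Momordicine-I and 3.08 CPM in vehicle T-like cells.

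Within the neutrophil-like cells Ddit3 was highest in those with the most UMIs of the hypoxia genes Hk2, Bnip3, Adm and Ankrd37, a set chosen after clusters of these cells were seen. Each cell was thinned to 2000 UMIs and grouped by its UMIs of these genes. In the Momordicine-I library, 489 cells with at least 4 such UMIs had 457 CPM of Ddit3 and 1003 cells with 0 had 329 CPM, a ratio of 1.39 (1.23 to 1.57). In the vehicle library, 439 cells with at least 4 had 544 CPM and 696 cells with 0 had 304 CPM, a ratio of 1.79 (1.57 to 2.05). Between these ends the Ddit3 level at 1, 2 and 3 such UMIs was 355, 373 and 369 CPM with Momordicine-I, and 298, 292 and 287 CPM with vehicle, so the vehicle cells showed a higher level at 4 or more UMIs alone. Atf4 gave 1.28 (1.17 to 1.39) with Momordicine-I and 1.31 (1.20 to 1.44) with vehicle, Sesn2 1.32 (1.07 to 1.63) and 1.33 (1.06 to 1.65), and Hspa5 1.17 (1.10 to 1.245) and 1.37 (1.28 to 1.45). Chac1 gave 1.46 (0.803 to 2.60) and 0.510 (0.211 to 1.11). S100a8 in the cells rich in these genes stood at 0.752 times its level in the cells with 0 in the Momordicine-I library and at 0.770 times in the vehicle library.

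Neutrophil-like cells rich in Ddit3 also held more Atf4, Chac1 and Hspa5. The 171 Momordicine-I cells with at least 3 Ddit3 UMIs had 1.56 times (1.39 to 1.74) the Atf4 level of the 1430 cells with 0, and the 130 vehicle cells had 1.45 times (1.27 to 1.64) that of 1112 cells. Chac1 stood at 38.0 CPM in the first and 14.7 CPM in the second Momordicine-I set (2.59, 1.28 to 4.92), and at 30.8 and 7.64 CPM in the vehicle sets (4.03, 1.504 to 9.84). Hspa5 gave 1.44 (1.32 to 1.56) with Momordicine-I and 1.94 (1.79 to 2.10) with vehicle. Atf3, a stress-induced transcription factor that is not among the 10, gave 1.66 (1.46 to 1.87) and 2.50 (2.20 to 2.84). Herpud1 differed between the libraries, with 0.692 (0.350 to 1.246) under Momordicine-I and 2.09 (1.35 to 3.13) under vehicle. For the other members the interval included 1 in both libraries. Xbp1 gave 0.939 (0.820 to 1.07) and 1.04 (0.910 to 1.19), and Sesn2 1.03 (0.732 to 1.42) and 1.30 (0.943 to 1.75). Asns gave 0.890 and 0.828, Nupr1 0.784 and 0.407, and Trib3 2.79 and 3.67, all with wide intervals. Cells within a library are not replicates, so these ratios describe the 2 pools.

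**Figure D4:**
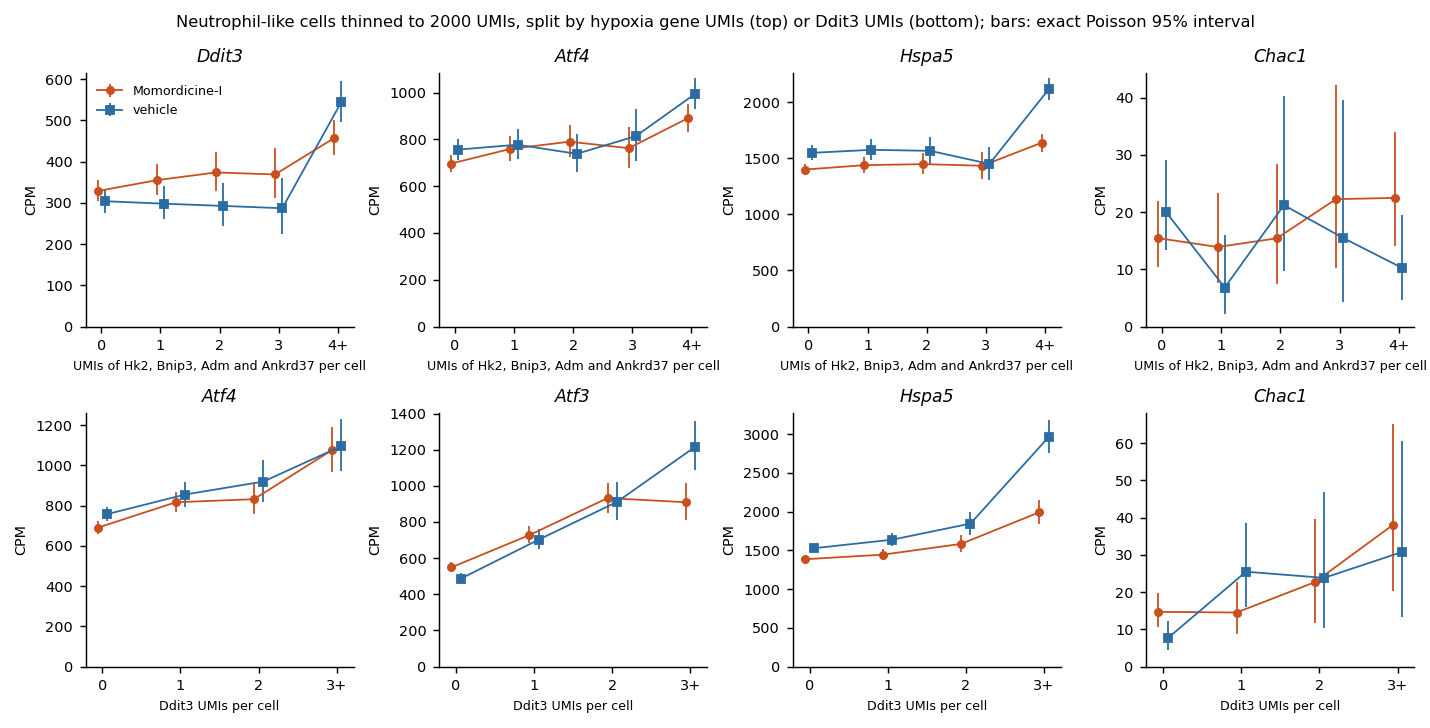
Levels (CPM) in neutrophil-like cells thinned to 2000 UMIs, grouped by UMIs of 4 hypoxia genes (top) or by Ddit3 UMIs (bottom), Momordicine-I as circles and vehicle as squares with exact Poisson 95% intervals. Ddit3 and Hspa5 are highest in the group with at least 4 hypoxia gene UMIs, and Atf4, Atf3 and Hspa5 are higher in cells with at least 3 Ddit3 UMIs than in cells with 0.

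The 2 members that act in the ER, Hspa5 and Herpud1, passed the 1.5-fold limit in none of the 8 types with all cells included. Without the largest tumour-like cell of each library both passed it in tumour-like cells, Herpud1 at 1.995 (1.55 to 2.60) and Hspa5 at 1.51 (1.43 to 1.599), and 1 vehicle cell gave 40.9% of the vehicle Herpud1 UMIs there. Hspa5 (chromosome 2, 34771970 to 34777547, plus strand) encodes BiP, the main ER chaperone, and its ratio lay between 0.923 and 1.48 over the 8 types. It was lowest in tumour-like cells, which had 911 CPM with Momordicine-I and 616 CPM with vehicle, and the other neighbours along the order, neutrophil-like cells at the top included, did not stand apart in both libraries. Herpud1 (chromosome 8, 94386438 to 94395377, plus strand), which works in ER-associated degradation, had 139.5 CPM under Momordicine-I and 126 CPM under vehicle in dendritic-like cells. B-like cells, with 149.7 CPM under Momordicine-I and 111 CPM under vehicle, did not stand apart from them, and the other 6 types lay lower. The Herpud1 ratio lay between 0.939 and 1.35 over the 8 types. Types below the cell minimum, named here after their values were seen, reached further. Hspa5 stood at 2800 CPM in 42 Momordicine-I and 3086 CPM in 59 vehicle basophil-like cells. The 7 plasma-like cells, all from the vehicle library, had 1455 CPM of Xbp1 and 682 CPM of Herpud1. Herpud1 stood at 457 CPM in 11 Momordicine-I and 196 CPM in 5 vehicle plasmacytoid dendritic-like cells. Hspa5 was lower with Momordicine-I in fibroblast-like cells, at 538 CPM in 12 Momordicine-I and 1016 CPM in 5 vehicle cells (0.529, 0.418 to 0.671). Plasma cells secrete antibody, and Xbp1 is needed for their formation.

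T-like cells gave the highest ratio of Xbp1. They held 122 CPM with Momordicine-I and 83.2 CPM with vehicle, a ratio of 1.46 (1.24 to 1.73), and Hspa5 had 1054 CPM with Momordicine-I and 824 CPM with vehicle, a ratio of 1.28 (1.21 to 1.35). Of 8 members measured there, 2 were higher (Asns and Nupr1) and 0 lower, against 7.87% of 10041 genes upward and 9.7% downward. The makeup of these cells differed, with 140 Momordicine-I and 41 vehicle gamma-delta T-like cells, and 95 and 191 naive T-like cells. Asns had 8 Momordicine-I and 0 vehicle UMIs in gamma-delta, 2 and 8 in regulatory, and 0 and 1 in naive T-like cells. The part of the makeup in the T-like ratios was not tested. Hspa5 stood at 1407 and 1251 CPM in the gamma-delta T-like cells of the Momordicine-I and vehicle libraries, and at 868 and 777 CPM in the naive T-like cells. In regulatory T-like cells Hspa5 had 764 CPM with Momordicine-I and 787 CPM with vehicle (0.971, 0.862 to 1.09). Within naive T-like cells Xbp1 had 125 CPM with Momordicine-I and 58.3 CPM with vehicle, a ratio of 2.15 (1.61 to 2.86). Regulatory T-like cells had 87.4 CPM of Xbp1 under Momordicine-I and 113 CPM under vehicle. Gamma-delta T-like cells had 131 CPM of Xbp1 under Momordicine-I and 101 CPM under vehicle (1.30, 0.867 to 2.01).

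The remaining types gave few calls. Of 7 members measured in macrophage-like cells, 1 was higher (Nupr1) and 0 lower, against 12.5% of 7404 genes upward and 11.8% downward. Atf4 there had 307 CPM with Momordicine-I and 374 CPM with vehicle (0.821, 0.698 to 0.965). S100a8 and S100a9 in these cells stood at 12.2% of the neutrophil-like level with Momordicine-I and 19.2% with vehicle, which would carry 88.4 CPM and 146 CPM of Atf4, and its part in the ratio was not tested. None of the members measured passed the limit in dendritic-like cells (0 of 7, against 9.17% of 9431 genes upward and 7.72% downward), B-like cells (0 of 5, against 10.5% of 7371 and 15.8%) or NK-like cells (0 of 6, against 8.56% of 7917 and 9.98%). In B-like cells Atf4 stood at 814 CPM with Momordicine-I and 692 CPM with vehicle, not apart from neutrophil-like cells.

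Other genes of the pathways were taken from 7 lists, each described by its own counts in tumour-like cells and only some of them in other types. Of 28 measured ATF4 and CHOP targets outside the members, 7 were higher and 1 was lower in tumour-like cells, with a median log2 ratio of 0.26, where 7.86% of all genes were higher and 11.9% lower. Txnip, which binds thioredoxin, had 45.0 CPM with Momordicine-I and 9.64 CPM with vehicle (4.67, 3.18 to 7.08). Atf5, a relative of ATF4, had 33.7 CPM with Momordicine-I and 13.2 CPM with vehicle (2.56, 1.81 to 3.69), and Mthfd2, an enzyme of mitochondrial folate metabolism, 75.8 and 39.5 CPM (1.92, 1.56 to 2.37). In the same cells none of 12 aminoacyl-tRNA synthetases, which are ATF4 targets as well, was past the limit in either direction, and their median was -0.11. None of 20 ER chaperones and foldases was past it either, with a median of -0.00, although Hsp90b1, the ER form of HSP90, had a ratio of 1.24 (1.17 to 1.31). The list of eIF2α kinases and phosphatase arms had 1 of 15 higher and 3 lower, among them Eif2ak2, which encodes PKR, with 15.8 CPM under Momordicine-I and 33.1 CPM under vehicle (0.477, 0.352 to 0.645).

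Other types gave other counts for the same lists. In B-like cells 7 of 18 ATF4 and CHOP targets were higher and 1 was lower, against 10.5% of all genes upward and 15.8% downward. NK-like cells had 6 of 19 higher and 0 lower, against 8.56% and 9.98%. The medians were 0.13 in B-like and -0.22 in NK-like cells. Dendritic-like cells had 3 of 22 higher and 1 lower (9.17% and 7.72% of all genes). T-like cells had 2 of 24 higher and 2 lower (7.87% and 9.7% of all genes). In monocyte-like cells 5 of 20 ATF4 and CHOP targets were higher and 1 was lower, with a median of 0.19, against 8.69% of all genes upward and 12.4% downward. Gdf15, a stress-induced cytokine, had 31 Momordicine-I UMIs and 1 vehicle UMI there (16.7, 2.78 to 681). The cystine transporter gene Slc7a11 was lower there, with 246 CPM under Momordicine-I and 373 CPM under vehicle (0.660, 0.584 to 0.746), while Vegfa was higher, with 329.7 and 215 CPM (1.54, 1.34 to 1.77). In macrophage-like cells 4 of 20 were higher and 5 lower, against 12.5% of all genes upward and 11.8% downward, with Gdf15 at 0.125 (0.0241 to 0.406) from 3 Momordicine-I and 26 vehicle UMIs, Slc7a11 at 0.513 (0.431 to 0.608) and Vegfa at 1.98 (1.63 to 2.42). In neutrophil-like cells 2 of 25 targets were higher and 1 lower, with a median of -0.05, against 13.5% of all genes upward and 4.79% downward. Gpt2, a mitochondrial alanine aminotransferase, had 11.1 CPM with Momordicine-I and 4.91 CPM with vehicle in them (2.26, 1.72 to 2.98), and Gdf15 had 8.70 CPM with Momordicine-I and 15.5 CPM with vehicle (0.563, 0.458 to 0.690). Of 20 ER chaperones, 3 were higher and 0 lower in neutrophil-like cells, with a median of 0.25 against 0.15 over all genes, and that count is near the 13.5% of all genes called higher. Sdf2l1, a BiP cofactor, had 7.86 CPM with Momordicine-I and 3.78 CPM with vehicle (2.08, 1.52 to 2.87). In T-like cells the chaperones had a median of 0.22, with 2 of 20 higher, near the 7.87% of all genes, and Hsp90b1 had 364 CPM with Momordicine-I and 256 CPM with vehicle (1.42, 1.29 to 1.56).

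Across the 16 points of 8 types in 2 libraries, the levels of some members went together. On log2(CPM + 10), Asns correlated with Trib3 at 0.90 and with Chac1 at 0.85, and Nupr1 with Asns at 0.83. Over the 14 points without tumour-like cells, these were 0.51, 0.62 and 0.35. Xbp1 correlated with Sesn2 at 0.89 and with Hspa5 at 0.87, and at 0.89 and 0.90 without tumour-like cells. The genes most like Ddit3 among 5601 compared were Amn1, Flcn, Rdh12, Csta2 and Wbp2, with correlations of 0.89 to 0.86. Those most like Hspa5 were Tet2, Clec4e, Slc16a3, Clec4d and Zfp263, at 0.89 to 0.88. The points share libraries and depth.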

How the data were processed

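The deposited values are raw UMI counts for every gene in every barcode, made with Cell Ranger 6.0.2 per the file headers, on mm10 per the submitters' processing notes. Positions come from GENCODE vM21 and promoters from RefSeq, both on GRCm38. The second Ddit3 row (ENSMUSG00000116429), an overlapping locus on chromosome 10, held 0 UMIs. Cells were gated where at least 3 markers of a type were detected and its score (mean of each marker's log1p value, scaled to its 99th percentile) led the next by 0.1. Sums, ratios and intervals used Python 3.11.15, numpy 2.4.6 and scipy 1.17.1, and doublets scanpy 1.11.5, checked on simulated data. Doublets were kept in the main values. Kept cells had a median of 5002 UMIs with Momordicine-I and 5760 with vehicle. Genes named are all members, up to 3 list genes whose interval lies farthest from 1, and the 5 genes most like Ddit3 and Hspa5. The members and lists were chosen with earlier results of these data known, and the gate's scoring after looking at the data. Of the list genes, Mars1 was not matched. The alternatives are given under the dependence on processing.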

Additional observations from a re-analysis of the deposited data

Results flagged for a closer look

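Atf4 was set apart because its ratio of Momordicine-I to vehicle had an interval above 1 in tumour-like cells and below 1 in macrophage-like cells. The ratio was 1.55 in tumour-like cells and 0.821 in macrophage-like cells. These were the highest and lowest over the 8 types, of which 3 had an interval above 1 and 3 an interval below 1. The median tumour-like cell of at least 20000 UMIs differed little between the libraries, and neutrophil RNA differed between the macrophage-like groups. The difference between the types was not tested, since each group is 1 library.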

How the results depend on the processing

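Of 164 counts of members under an alternative, 127 stayed within 1.5 times the reported count and 37 did not. The shares of all genes given above hold for the main settings alone. The counts below therefore have no such share beside them and show only how the member counts move. At a limit of 0.32 on the log2 scale in place of 0.58, members higher numbered 1 in B-like, 5 in T-like, 1 in dendritic-like and 7 in tumour-like cells, and members lower 2 in macrophage-like and 1 in neutrophil-like cells. At a mitochondrial limit of 5%, members higher numbered 1 in B-like, 2 in macrophage-like and 2 in tumour-like cells, and members lower 1 in NK-like and 1 in tumour-like cells. With no UMI minimum, members higher numbered 3 in B-like, 2 in NK-like, 1 in dendritic-like and 2 in macrophage-like cells, and members lower 1 each in B-like, NK-like and T-like cells. With the mean of the cells' CPM, members higher numbered 1 in NK-like and 0 in macrophage-like cells, and members lower 1 each in macrophage-like, monocyte-like and tumour-like cells. With thinned cells, members higher numbered 2 in NK-like, 1 in dendritic-like, 2 in macrophage-like and 0 in neutrophil-like cells, and members lower 1 each in NK-like, T-like and monocyte-like cells and 2 in tumour-like cells. A stricter gate gave 1 higher in T-like and 0 in macrophage-like cells. Without each gene's top cell, members higher numbered 1 in dendritic-like, 0 in macrophage-like and 8 in tumour-like cells, and without the largest tumour-like cell of each library 9 in tumour-like cells. The log2 ratio of Ddit3 in tumour-like cells was -0.43 and that of Nupr1 in macrophage-like cells -0.60 with the mean of the cells' CPM, and that of Nupr1 in neutrophil-like cells was -0.13 under 5000 UMIs. The cause was not tested. Of the other member ratios, 451 stayed within the reported interval and 86 moved outside it. The neutrophil states, keratin, depth and largest-cell settings were chosen after seeing the data. Ratios of Trib3, Chac1 and Asns outside tumour-like and neutrophil-like cells rest on few UMIs. No paired analysis was possible because each group is 1 library.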

Other observations

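Ppp1r15a, which encodes GADD34, the stress-induced partner of the phosphatase that reverses eIF2α phosphorylation, had a ratio of Momordicine-I to vehicle below 1 in 7 of the 8 types. It was picked out after its values were seen, and no share of all genes with such a count is given beside it. T-like cells had 555 CPM with Momordicine-I and 765 CPM with vehicle (0.726, 0.680 to 0.776), and NK-like cells had 239.7 CPM with Momordicine-I and 322 CPM with vehicle (0.744, 0.638 to 0.866). Dendritic-like cells gave 0.778 (0.713 to 0.849), macrophage-like cells 0.803 (0.703 to 0.916) and monocyte-like cells 0.855 (0.786 to 0.931). Neutrophil-like cells had 1339 CPM with Momordicine-I and 1493 CPM with vehicle (0.897, 0.881 to 0.913), and B-like cells gave 0.880 (0.7996 to 0.967). Tumour-like cells gave 1.17 (1.01 to 1.35), with 108 CPM under Momordicine-I and 92.9 CPM under vehicle. None of these ratios passed the 1.5-fold limit, and each kept its side of 1 with mitochondrial and ribosomal UMIs left out of the totals, at 0.711 in T-like and 1.24 in tumour-like cells. Fos belongs to the list of cytosolic heat shock and handling response genes. Its ratio was also below 1 in T-like (0.840), NK-like (0.666), dendritic-like (0.836) and B-like cells (0.687). Fos went the other way from Ppp1r15a in monocyte-like (1.29), neutrophil-like (above 1) and tumour-like cells (0.738). Hspa1b of that list gave 0.496 in macrophage-like and 1.33 in tumour-like cells. The part of handling in the Ppp1r15a ratios was not tested.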
